A study of Homo sapiens with 16 samples.

Results

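The BCL2 family of apoptosis regulators was examined in RNA-seq libraries of B-cell lymphoma lines in which CREBBP, a gene for a histone acetyltransferase, had been targeted. The members were the 10 rows, of 62714 genes in each file, whose symbol was BCL2, BCL2L1, MCL1, BCL2A1, BAX, BAK1, BCL2L11, BBC3, PMAIP1 or BID. The experiment comprised 16 libraries from 4 established lines, SU-DHL4, DOHH2, OCI-LY7 and SU-DHL10. In each line a lentiviral vector carrying Cas9 and several guides was aimed at CREBBP (labelled CREBBP -/-) or, as the control, at the AAVS site (labelled AAVS -/-). Cells were used as targeted pools and not as single clones. Each pool was cultured for 4 h without IL4 (baseline) or with IL4 at 10 ng/ml. This gave 4 groups of 4 libraries with 1 library per line, named AAVS baseline and AAVS IL4 for the control pools and CREBBP baseline and CREBBP IL4 for the targeted ones. All pools, controls included, carried the vector. Line 1 was SU-DHL4 and line 4 was DOHH2. For the other two, OCI-LY7 and SU-DHL10, sample titles and cell line entries of the labels contradict each other, so they are called line 2 and line 3 here.

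Proteins of the BCL2 family decide whether the outer membrane of mitochondria is opened, the step that releases cytochrome c and starts the caspase cascade. BCL2, BCL-XL (encoded by BCL2L1), MCL1 and BFL1 (encoded by BCL2A1) hold the effectors BAX and BAK in check, and the BH3-only proteins BIM (BCL2L11), PUMA (BBC3), NOXA (PMAIP1) and BID relieve that restraint or activate the effectors. In normal germinal centre B cells BCL2 is held low, and in most follicular lymphomas the t(14;18) translocation places it under control of the immunoglobulin heavy chain locus.

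Total counts per library ranged from 19649735 to 61981976, with the lowest median, 29790813.5, in the AAVS IL4 group. All 8 B-cell markers had counts in the libraries, with a summed level between 4116 and 10208 CPM (counts of the gene per 1000000 counts of its library). The 4 AAVS IL4 libraries stood apart from the other 12. Of 9 markers of naive or memory B cells, 7 were higher in every AAVS IL4 library than in any other library, and their summed level was 456 to 3607 CPM against 3.37 to 36.8 CPM. IGHM, the mu heavy chain gene, had 951, 711, 1711 and 138 CPM in the AAVS IL4 libraries of lines 1 to 4 and at most 0.0696 CPM elsewhere, and IGHD was at 0 in the other 12. Of 13 T-cell markers 12 were likewise higher in every AAVS IL4 library, with sums of 41.2 to 268 CPM against 2.37 to 38.5 CPM, and CD2 was at 0 in the other 12. The sums of 5 NK-cell markers were 4.42 to 21.5 CPM against 0.513 to 2.23 CPM, with 2 of 5 likewise higher in every AAVS IL4 library. Those of 12 myeloid markers were 14.8 to 31.5 CPM against 5.53 to 29.3 CPM, with 1 of 12 likewise higher. C1QA, C1QB, C1QC, CD163 and S100A9 were at 0 in the other 12 libraries, but too low in AAVS IL4 to be tested. FCN1 of the same list was lower with IL4 in 4 of 4 lines of the AAVS pools. The sums of 9 stromal and endothelial markers were 3.30 to 43.0 CPM against 0.199 to 51.2 CPM, with 1 of 9 likewise higher (CDH5 at 0 in all 16). Germinal centre markers summed to 945 to 1473 CPM against 799 to 1678 CPM. Every comparison that used the AAVS IL4 libraries is therefore given beside these values, and the part of those transcripts in the results was not tested. CREBBP transcripts were present in all groups, at 270 ± 65.4 CPM in AAVS baseline, 299.7 ± 78.8 CPM in AAVS IL4, 232 ± 49.2 CPM in CREBBP baseline and 187 ± 79.1 CPM in CREBBP IL4 (SD, n = 4 each). Small insertions and deletions at a guide site need not lower the transcript, so this level does not measure the targeting.

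Several members differed between lines, as the plot of the members' levels in every library shows. Outside the AAVS IL4 group, the 3 libraries of line 2 did not overlap those of the other lines for 5 of 10 members, with BCL2, BCL2L1 and PMAIP1 lower and BCL2A1 and BID higher in line 2. In line 4 this held for 1 of 10 members, BCL2, which was higher there, and in lines 1 and 3 for 0 of 10. Across the 14239 genes with a mean of at least 1 CPM in these 12 libraries, the share that stood apart in the same way was 21.5% in line 2, 18% in line 4, 1.18% in line 1 and 0.407% in line 3. Pairs of libraries of the same group that included line 2 differed by 149 to 235 genes with a level of at least 10 CPM on 1 side but below 0.5 CPM on the opposite side, against 1 to 17 genes for pairs among lines 1, 3 and 4.

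**Figure D1:**
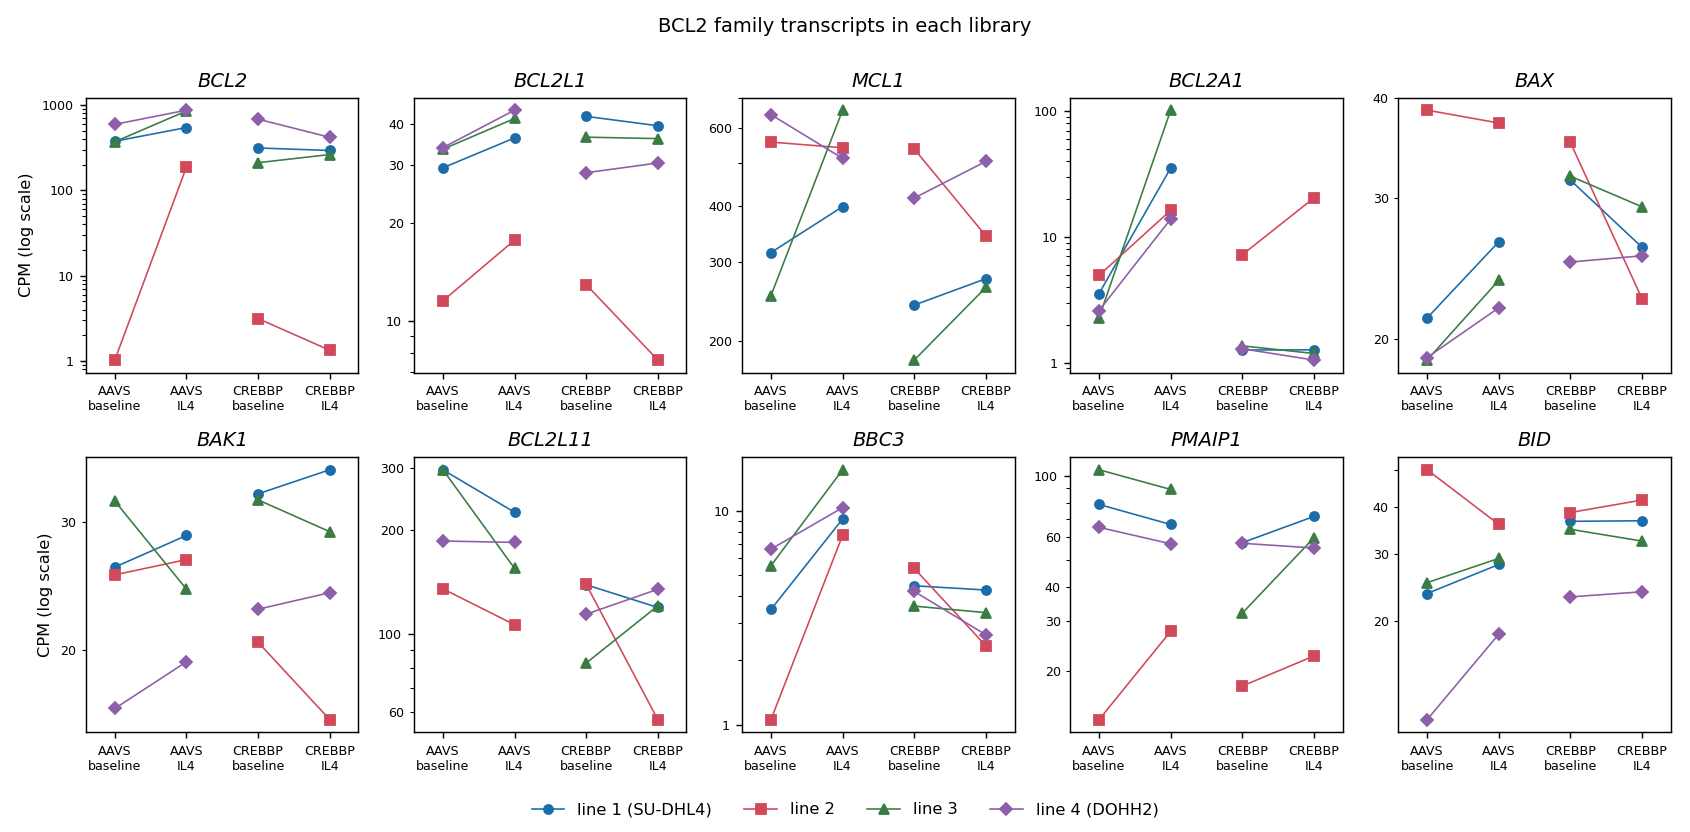
CPM (log axis) of the 10 members in each of the 16 libraries, by group on the horizontal axis, with 1 marker per line and a line joining the 2 libraries of a pool. BCL2 in line 2 lies between 1.03 and 3.15 CPM except in AAVS IL4, at 188 CPM, and the highest library of BBC3 in each line, and of BCL2A1 in lines 1, 3 and 4, is that of AAVS IL4.

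Among the anti-apoptotic members, BCL2 spanned the widest range. In line 1 it was 375 CPM in AAVS baseline, 544 in AAVS IL4, 314 in CREBBP baseline and 293 in CREBBP IL4. In line 3 these levels were 370.3, 850.2, 211 and 263 CPM, and in line 4 they were 592, 868, 681 and 418 CPM. In line 2, BCL2 was nearly silent in 3 libraries, with 1.03, 3.15 and 1.34 CPM (42, 92 and 54 counts) in AAVS baseline, CREBBP baseline and CREBBP IL4, and it had 188 CPM (6382 counts) in AAVS IL4. Outside the AAVS IL4 group, the median of the other lines was 276 times that of line 2. The BCL2 level of the line 2 AAVS IL4 library thus lay outside the range of its own line and under that of every library of the other lines. The span of a long noncoding RNA gene overlaps that of BCL2 on the opposite strand, with up to 288 counts in a library. Whether its reads entered the low BCL2 counts of line 2 was not tested.

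MCL1, which encodes a short-lived guardian, was abundant in every library. In the AAVS pools of lines 1 to 4 it was 315, 558, 252 and 643 CPM without and 399.6, 542, 658 and 513 CPM with IL4. In the CREBBP pools these levels were 240.2, 538, 181 and 418 CPM and 275, 343, 263 and 505 CPM. Outside the AAVS IL4 group, lines 2 and 4 lay above lines 1 and 3, with overlap within each of these pairs. BCL2L1 was 11.5, 17.7, 12.9 and 7.63 CPM in line 2 in the same order of groups, and between 28.4 and 43.97 CPM in all libraries of the other lines, so that line 2 was lowest in every group. BCL2A1, an NF-kappaB target in activated B cells that encodes BFL1, was the lowest of the guardians per length in lines 1, 3 and 4 outside the AAVS IL4 group. It was 1.05 to 3.55 CPM in lines 1, 3 and 4 and 4.95, 7.23 and 20.4 CPM in the AAVS baseline, CREBBP baseline and CREBBP IL4 libraries of line 2, where it was highest.

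Levels of different genes were compared per length, as CPM divided by the length of the canonical transcript in kilobases. Over the 12 libraries outside the AAVS IL4 group, the median per-length level was 83.4 for MCL1, 44.1 for BCL2, 12.4 for BCL2L1 and 2.33 for BCL2A1. Expressed as shares of the per-length sum of these 4 genes, as in the plot of the anti-apoptotic shares, MCL1 made up 47.8 to 63.4% and BCL2 30.1 to 45.5% in these libraries of lines 1, 3 and 4. In line 2, MCL1 made up 74.7 to 92.8% and BCL2 0.0983 to 0.303%. The share of BCL2A1 was 0.666 to 3.02% in lines 1, 3 and 4 and 4.17, 6.13 and 22.5% in AAVS baseline, CREBBP baseline and CREBBP IL4 of line 2. In AAVS IL4, BCL2A1 took 18.9, 10.9, 29.9 and 6.12% in lines 1 to 4. With the union of all exons as the length, the share of BCL2 in lines 1, 3 and 4 was 27.0 to 41.8% and the order of the 4 genes by median was the same.

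**Figure D2:**
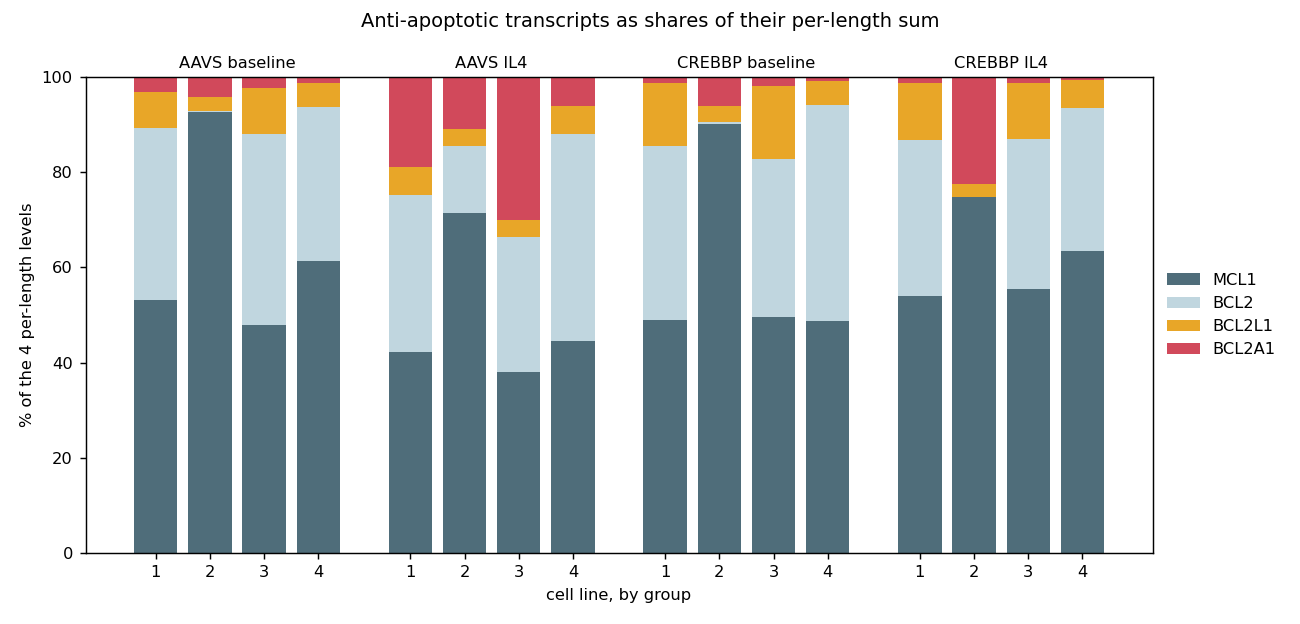
Stacked bars of the per-length levels of MCL1, BCL2, BCL2L1 and BCL2A1 as percent of their sum in each library, with the lines 1 to 4 in each group. MCL1 is the largest share in all 16 libraries, BCL2 is under 1% in 3 of the 4 libraries of line 2, and BCL2A1 is between 6.12 and 29.9% in AAVS IL4.

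The effectors spanned the narrowest ranges of the members outside the AAVS IL4 group, with the highest library 2.06 times the lowest for BAX and 2.21 times for BAK1. BAX, which moves from the cytosol to mitochondria when activated, was 18.8 to 38.6 CPM over the 16 libraries. In AAVS baseline it was 21.2, 38.6, 18.8 and 18.9 CPM in lines 1 to 4, with line 2 far above the rest, and in CREBBP baseline 31.6, 35.2, 31.9 and 24.9 CPM. BAK1, whose product resides in the mitochondrial membrane, was 16.1 to 35.5 CPM, with lines 1 and 3 above lines 2 and 4 outside the AAVS IL4 group. The per-length medians over these 12 libraries were 32.3 for BAX and 11.9 for BAK1, but BAX came to 9.94 with the union of its exons, below the 11.6 of BAK1, so their order depended on the length used.

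Of the BH3-only members, BCL2L11, whose product BIM activates the effectors and binds all guardians, was 56.9 to 297 CPM. In the AAVS pools of lines 1 to 4 it was 297, 135, 297 and 185 CPM without and 224, 107, 155 and 184 CPM with IL4. In the CREBBP pools it was 139, 139, 82.7 and 114 CPM without and 119, 56.9, 121 and 135 CPM with IL4. The span of MIR4435-2HG overlaps that of BCL2L11 on the opposite strand, with up to 4079 counts in a library. The paper names a stranded library kit, but the strand setting of the counting was not given in the sources used here. Whether reads of 1 of these 2 genes were counted for the other was not tested. PMAIP1 was 13.3, 27.7, 17.6 and 22.6 CPM in line 2 (AAVS pool without and with IL4, then CREBBP pool without and with IL4) and 32.1 to 104.9 CPM in the other lines, with no overlap. BID, which links death receptors to mitochondria, was 50.2, 36.0, 38.7 and 41.8 CPM in line 2 and 11.0 to 36.8 CPM elsewhere, and was lowest in line 4 in every group. BBC3, a p53 target, had 1.05 to 6.62 CPM outside the AAVS IL4 group and 9.17, 7.69, 15.6 and 10.4 CPM within it, without overlap. The per-length medians outside the AAVS IL4 group were 30.2 for PMAIP1, 26.5 for BCL2L11, 15.5 for BID and 2.11 for BBC3, the lowest of the 4.

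The 3 members with the smallest p-values in any comparison were BCL2A1, BBC3 and BCL2L11, and their start regions are shown for this reason. Each window covers 250 bases before and 50 bases after the annotated start (RefSeq, GRCh38.p14), at chr15:79971147-79971446 on the minus strand for BCL2A1, chr19:47232618-47232917 on the minus strand for BBC3 and chr2:111120664-111120963 on the plus strand for BCL2L11. Capitals mark a match to TTCNNNGAA, a palindrome of the type bound by STAT proteins, whose search covers both strands.
BCL2A1: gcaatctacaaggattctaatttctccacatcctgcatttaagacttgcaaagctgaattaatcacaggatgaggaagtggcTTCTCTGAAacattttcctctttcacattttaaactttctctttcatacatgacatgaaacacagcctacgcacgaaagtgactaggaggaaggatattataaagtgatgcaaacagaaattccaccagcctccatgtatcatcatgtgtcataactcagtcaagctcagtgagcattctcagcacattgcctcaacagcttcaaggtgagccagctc
BBC3: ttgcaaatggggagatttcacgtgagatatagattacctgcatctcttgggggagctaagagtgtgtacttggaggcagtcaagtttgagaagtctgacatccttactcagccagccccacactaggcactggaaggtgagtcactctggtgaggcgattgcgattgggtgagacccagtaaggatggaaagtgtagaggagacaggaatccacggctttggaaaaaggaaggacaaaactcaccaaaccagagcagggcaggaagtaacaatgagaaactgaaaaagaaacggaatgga
BCL2L11: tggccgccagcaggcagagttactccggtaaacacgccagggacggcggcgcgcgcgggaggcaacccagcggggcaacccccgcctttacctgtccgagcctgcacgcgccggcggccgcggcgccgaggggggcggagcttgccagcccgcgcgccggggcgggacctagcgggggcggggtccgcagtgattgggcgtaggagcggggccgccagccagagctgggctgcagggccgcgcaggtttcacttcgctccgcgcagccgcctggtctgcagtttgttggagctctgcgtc
The table held windows for 9 of the 10 members, not MCL1, and 14 in all. TTCNNNGAA was present in 1 of these 14, in BCL2A1 at position -168 relative to the start, and in 7.66% of all 35116 windows. The longer spacing that STAT6 prefers, TTCNNNNGAA, was in 0 of 14 and in 6.44% of all, and the full cyclic AMP response element TGACGTCA was in 0 of 14 and in 1.85% of all. The match shares no base with a match to another motif searched.

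The first comparison asked how IL4 changed the members in the control pools. In the quasi-likelihood fit of edgeR, which blocked on line, 0 of 10 members passed an adjusted p of 0.05, against 2.4% of 20310 genes. An unadjusted p under 0.05 was reached by 2 members, against 16% of all genes tested, and DESeq2 called the same 2, BCL2A1 and BBC3, against 10.2% of all genes. Differences within a line are given below as log2 CPM after TMM scaling, the trimmed-mean factors that the fits also used, whereas levels in CPM are scaled to library totals alone. Leaving out TMM shifted the median within-line difference of the genes tested by -0.07 to 0.36 in this comparison, and by -0.52 in line 2 of the CREBBP pools with IL4 against baseline, so small differences can change sign between the scales. In lines 1 to 4, the baseline libraries had 3.55, 4.95, 2.28 and 2.60 CPM of BCL2A1 and the IL4 libraries 35.4, 16.3, 102.1 and 13.9 CPM. Its fitted log2 fold change was 3.12 ± 0.59 (SE), with an adjusted p of 0.053 (edgeR) that ranged from 4.49e-07 to 0.237 over the alternatives. BBC3 had 3.46, 1.05, 5.54 and 6.62 CPM in the baseline and 9.17, 7.69, 15.6 and 10.4 CPM in the IL4 libraries. The log2 fold change of BBC3 was 1.50 ± 0.42 (SE), with an adjusted p of 0.164 (edgeR, 0.0093 to 0.581 over the alternatives). The 4 AAVS IL4 libraries fell in the same order for BCL2A1 and IGHM, with line 3 highest, then lines 1, 2 and 4. For BBC3 the order was line 3, 4, 1 and 2. The part of the naive or memory B-cell and T-cell transcripts in either difference was not tested. BCL2A1 was called without line 2 (adjusted p = 0.0206 in edgeR) and without line 3 (adjusted p = 0.0222). BCL2A1 was not called in every fit that left out 1 line, since 0 to 1 members passed in these fits. Over all genes 64 to 1035 passed in them, highest without line 2, against 488 in the main test.

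BCL2 was higher with IL4 in 4 of 4 lines of the control pools, but by 0.27, 7.51, 0.84 and 0.55 on the TMM-scaled log2 scale in lines 1 to 4 (0.53, 7.45, 1.20 and 0.55 with library totals alone), so line 2 set the fitted value of 1.61 ± 1.16 (SE), which was 0.64 without line 2. BCL2L11 was lower in 4 of 4 lines, by a log2 fold change of -0.49 ± 0.24 (SE; adjusted p = 0.362, edgeR). With BCL2A1 and BBC3, 4 of 10 members thus went 1 way in 4 of 4 lines, against 30.2% of the genes tested. With library totals alone BCL2L1 was also higher in every line, which made 5 of 10, against 29.4% of the genes. BCL2 and BBC3 were the 2 members highest in the AAVS IL4 library of each line, which held for 10.8% of 14987 genes with a mean of at least 1 CPM, and BBC3 alone had all 4 AAVS IL4 libraries above the other 12, as 4.02% of those genes did. For BCL2L1, MCL1, BAX, BAK1, PMAIP1 and BID the fitted log2 fold changes lay between -0.05 and 0.34, with 95% confidence intervals from -0.69 to 0.93 at the widest. The 4 anti-apoptotic members had a median log2 fold change of 0.98 and the 4 BH3-only members one of 0.07, beside 0.01 over all genes tested. The first median lay between BCL2L1 at 0.34 and BCL2 at 1.61, the value that line 2 set. The BH3-only members ran from -0.49 for BCL2L11 to 1.50 for BBC3, so the medians are not read as a contrast of the classes. Since other cells may contribute RNA to these bulk libraries, a change in cell composition and a change in RNA per cell cannot be told apart.

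**Figure D3:**
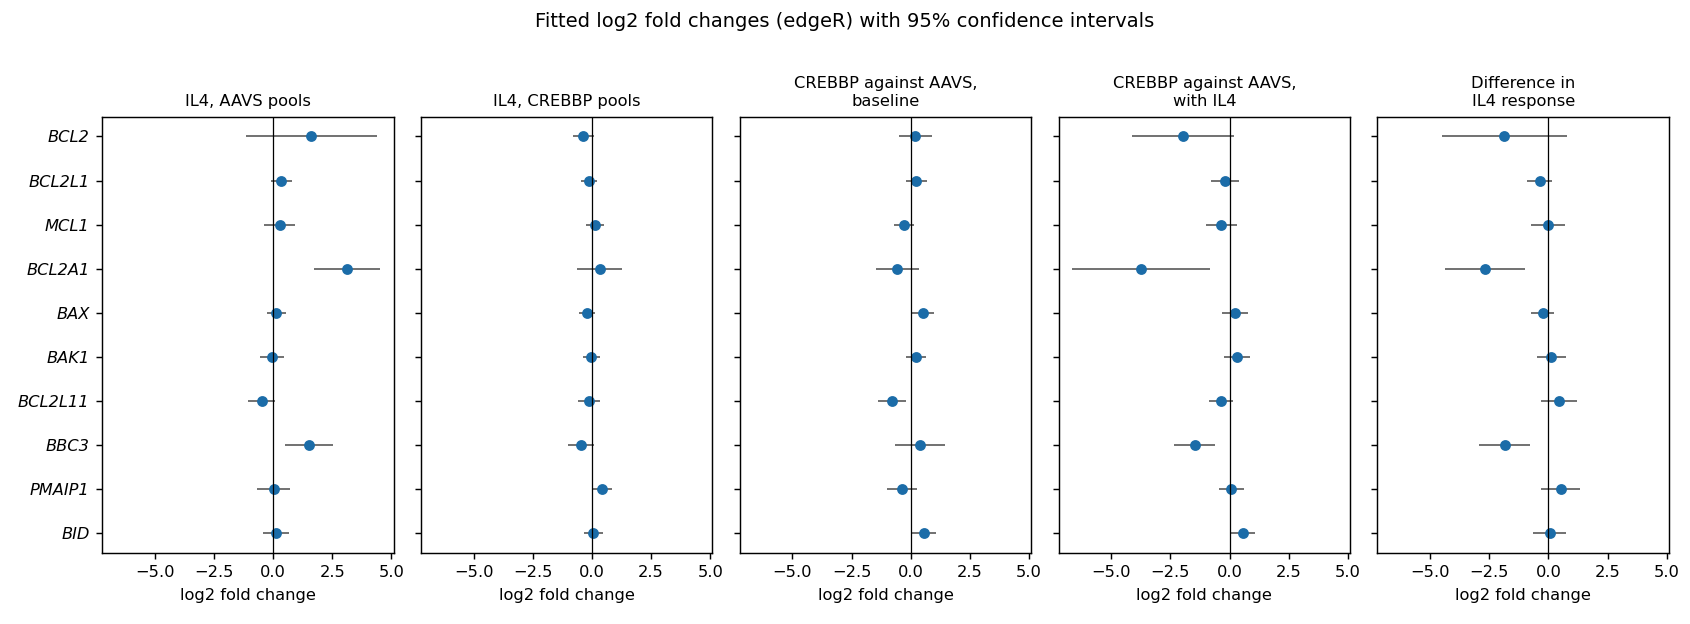
Fitted log2 fold change (points) and 95% confidence interval (bars, edgeR) of the 10 members in each of the 5 comparisons, on 1 common scale. The widest intervals are those of BCL2 and BCL2A1 in the 3 comparisons that use the AAVS IL4 libraries, while in the CREBBP pools with and without IL4 all points lie between -0.46 and 0.42.

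The second comparison asked the same of the CREBBP pools. None of the members passed (0 of 10, against 0% of 18282 genes in edgeR), 1 had an unadjusted p under 0.05 (2.75% of all genes), and DESeq2 called 0 (0.00547% of all genes). That member was PMAIP1. Baseline libraries had 57.5, 17.6, 32.1 and 57.2 CPM and IL4 libraries 71.4, 22.6, 59.9 and 55.0 CPM, with a log2 fold change of 0.42 ± 0.18 (SE) and an adjusted p of 0.924 (edgeR). The groups overlapped, and line 4 was not higher. BBC3 went from 4.46, 5.38, 3.58 and 4.20 CPM to 4.26, 2.34, 3.34 and 2.63 CPM, lower in 4 of 4 lines, the 1 member of 10 with the same sign in every line, beside 14.6% of the genes tested (1 of 10 and 9.92% with library totals alone). Its log2 fold change was -0.46 ± 0.25 (SE), with a 95% interval from -1.03 to 0.11. BCL2A1 went from 1.26, 7.23, 1.36 and 1.29 CPM to 1.27, 20.4, 1.18 and 1.05 CPM, so that line 2 was the 1 line with a clear rise, by 2.02 on the TMM-scaled log2 scale and 1.49 with library totals alone. In that library of line 2, RN7SK, RN7SL1 and RN7SL2, 3 abundant small RNA genes, took 18.1% of the counts, the highest of a range that began at 4.41%, and their part was not tested. The intervals of the 8 members other than BCL2A1 and BBC3 lay within -0.81 and 0.83, so differences beyond these sizes were outside the 95% intervals of this test.

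At baseline, CREBBP pools were compared with AAVS pools to see whether targeting CREBBP altered the members by itself. By edgeR 0 of 10 members passed (0% of 18936 genes), 3 had an unadjusted p under 0.05, against 12.8% of all genes, and DESeq2 called 0, against 2.7%. BCL2L11 was lower in lines 1, 3 and 4, at 139, 82.7 and 114 CPM against 297, 297 and 185 CPM, and about equal in line 2, at 139 against 135 CPM. The log2 fold change was -0.80 ± 0.27 (SE) and the adjusted p was 0.305 (edgeR, 0.0251 to 1 over the alternatives). Without line 2, the log2 fold change of BCL2L11 was -1.09 and the adjusted p was 0.0409 (edgeR). Line 2 was the 1 line with a difference above 0 (0.14 after TMM scaling), so leaving it out favours a call. Over all genes 515 passed without line 2, against 0 in the main test. BAX and BID were the 2 other members, with log2 fold changes of 0.50 ± 0.21 and 0.55 ± 0.24 (SE). For both, lines 1, 3 and 4 were higher in the CREBBP pools and line 2 was not, and the adjusted p-values were 0.368 and 0.378 (edgeR). After TMM scaling 0 of 10 members had the same sign in 4 of 4 lines, against 20.6% of the genes tested. With library totals alone it was 1 of 10, against 20.9%, since MCL1 was then lower in every line, by 0.05 in line 2, where the TMM-scaled difference was 0.04.

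With IL4 in both, 0 of 10 members differed between CREBBP and AAVS pools in edgeR, against 4.39% of 19581 genes, while 3 had an unadjusted p under 0.05, against 25.6% of all genes, and DESeq2 called 3 (BCL2, BCL2A1 and BBC3), against 21.2%. BBC3 was 4.26, 2.34, 3.34 and 2.63 CPM in the CREBBP pools and 9.17, 7.69, 15.6 and 10.4 CPM in the AAVS pools. Its log2 fold change was -1.48 ± 0.37 (SE) with an adjusted p of 0.0654 (edgeR, 0.00078 to 0.225 over the alternatives, and 0.0437 without line 2). BCL2A1 was lower in lines 1, 3 and 4 and higher in line 2, with a log2 fold change of -3.75 ± 1.25 (SE), an adjusted p of 0.121, and 0.00234 without line 2 (edgeR). The latter leaves out the 1 line of opposite sign, which favours a call. Over all genes 25 to 2547 passed when 1 line was left out, against 859 in the main test. BCL2 was lower in 4 of 4 lines, with a log2 fold change of -1.97 ± 0.92 (SE; adjusted p = 0.225), and -1.01 without line 2. BID was 36.8, 41.8, 32.5 and 23.9 CPM against 28.2, 36.0, 29.3 and 18.4 CPM, higher in 4 of 4 lines with overlapping groups, by a log2 fold change of 0.56 ± 0.23 (SE; adjusted p = 0.175). With BCL2L11, which was lower in 4 of 4 lines (log2 fold change -0.38 ± 0.22), 4 of 10 members kept 1 sign in all lines, beside 37.8% of the genes tested. With library totals alone MCL1 was lower in every line as well (line 4 at -0.02, and 0.08 after TMM scaling), which made 5 of 10, beside 38.2%. This comparison rests on the AAVS IL4 libraries described above.

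The last comparison tested whether the IL4 response itself differed between CREBBP and AAVS pools. By edgeR 0 of 10 members passed, against 0.638% of 21932 genes, 2 had an unadjusted p under 0.05, against 13.3% of all genes, and DESeq2 called those 2, against 5.01%. For BBC3 the difference was -1.86 ± 0.50 on the log2 scale (SE; adjusted p = 0.141, edgeR), and it was below 0 in 4 of 4 lines (-1.22, -3.55, -1.44 and -1.27). For BCL2A1 it was -2.70 ± 0.77 (SE; adjusted p = 0.168, edgeR), with -3.05, 0.24, -5.50 and -2.65 in lines 1 to 4, after TMM scaling. The sign of line 2 turned with the scaling, since it was -0.21 with library totals alone. Without line 2 the difference for BCL2A1 was -3.86 and passed (adjusted p = 0.0344, edgeR). Line 2 was the 1 line of opposite sign after TMM scaling, so leaving it out favours a call and is not a separate test. Over all genes 16 to 264 passed when 1 line was left out, against 140 in the main test. BCL2, BCL2L1 and BAX were also below 0 in 4 of 4 lines, which makes 4 of 10 members with 1 sign, beside 26.5% of the genes tested (5 of 10 with BCL2A1 and 24.8% with library totals alone), and their differences were -1.86 ± 1.20, -0.38 ± 0.24 and -0.24 ± 0.22 (SE). The plot of the IL4 differences within lines sets the 2 responses side by side. The median difference was -1.12 over the 4 anti-apoptotic and 0.25 over the 4 BH3-only members, beside 0.05 over all genes tested. The first median lay between BCL2L1 at -0.38 and BCL2 at -1.86, and BCL2 ranged from -2.60 to -0.91 when 1 line was left out. The BH3-only members ran from -1.86 for BBC3 to 0.51 for PMAIP1, so these medians too are not read as a contrast of the classes. Since each group, AAVS IL4 and AAVS baseline included, enters 3 of the 5 comparisons, these are not independent of each other. For BCL2L11, the same AAVS baseline libraries enter both its lower level with IL4 in AAVS pools and its lower level in CREBBP pools at baseline.

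**Figure D4:**
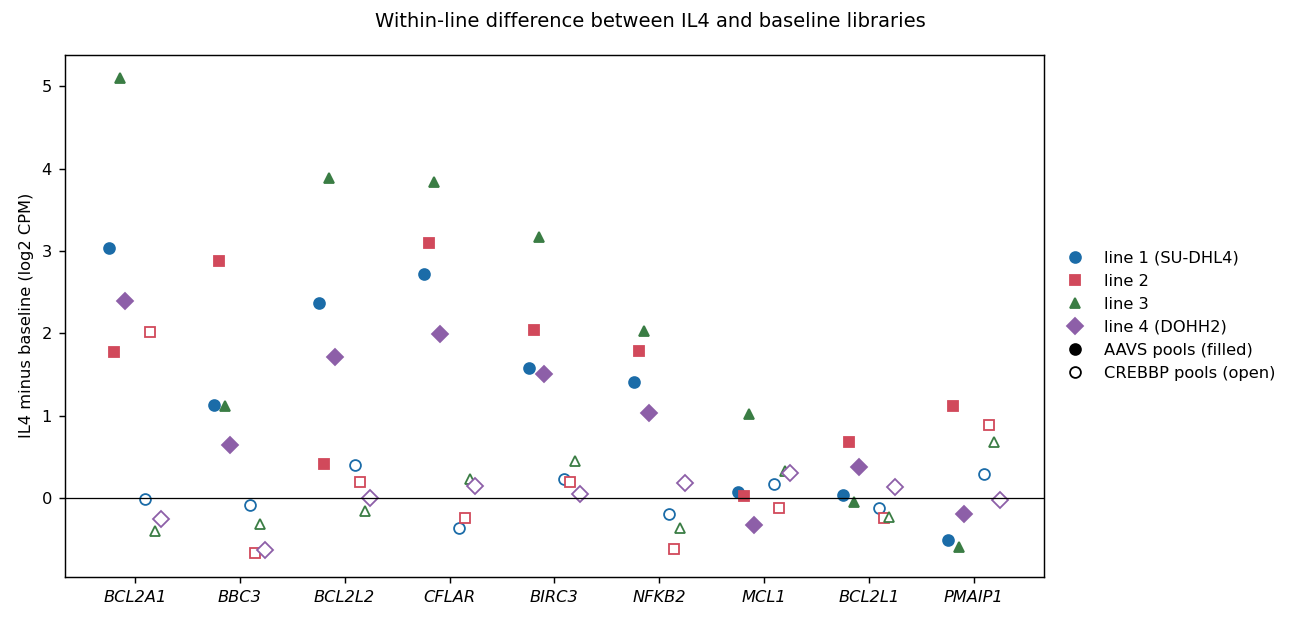
Difference between the IL4 and the baseline library of a pool (TMM-scaled log2 CPM, vertical axis) for 5 members and 4 other genes of the pathway, named on the horizontal axis, with filled markers for AAVS pools, open markers for CREBBP pools and 1 shape per line. For CFLAR, BIRC3 and NFKB2 the AAVS pools lie between 1.04 and 3.84, above all CREBBP pools, while for MCL1, BCL2L1 and PMAIP1 the 2 kinds of pool overlap.

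Other genes of the pathway were read from the same fits. Of 13 other family genes, 10 or 11 were tested in each comparison and 0 passed in any of the 5 (edgeR). An unadjusted p under 0.05 was reached with IL4 by 1 of 10 in AAVS pools (16% of all genes) and 1 of 11 in CREBBP pools (2.75%). It was reached by 2 of 11 at baseline (12.8%), 4 of 10 with IL4 in both (25.6%) and 1 of 11 for the difference (13.3%). BCL2L2, which encodes the guardian BCL-W, was 0.374, 5.17, 0.246 and 1.20 CPM in AAVS baseline and 2.54, 6.60, 5.45 and 4.04 CPM in AAVS IL4, with a log2 fold change of 2.20 ± 0.67 (SE; adjusted p = 0.193, edgeR). It was 0.479 to 0.654 CPM in the CREBBP libraries of lines 1, 3 and 4. In line 2 the CREBBP pool differed from the AAVS pool by only 0.20 at baseline and -0.02 with IL4 (TMM-scaled log2 CPM). BMF, a BH3-only gene, was 61.5, 112.8, 136.6 and 82.4 CPM in AAVS baseline and 38.9, 47.2, 32.6 and 46.8 CPM in CREBBP baseline, with a log2 fold change of -1.10 ± 0.23 (SE; adjusted p = 0.207, edgeR). With IL4 in both, BMF had a log2 fold change of -1.06 ± 0.32 (SE; adjusted p = 0.0957, edgeR). The within-line differences were -1.23, -1.27, -1.73 and 0.004 in lines 1 to 4 (TMM-scaled log2 CPM), so line 4 was not lower. HRK, another BH3-only gene, was 0.515 to 3.92 CPM in line 2 and 5.44 to 36.7 CPM in the other lines. BIK was 0.760 to 7.88 CPM and BAD 6.53 to 24.8 CPM over the 16 libraries, and BOK was at most 0.507 CPM.

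Among 6 inhibitors of caspases and death receptors, 2 rose with IL4 in the AAVS pools (edgeR), where 2.4% of all genes tested passed in either direction. CFLAR, which encodes the caspase-8 inhibitor c-FLIP, went from 25.9, 6.23, 26.5 and 28.5 CPM to 205, 51.3, 488 and 113 CPM (log2 fold change 2.99 ± 0.34, adjusted p = 0.0122). BIRC3, a ubiquitin ligase of the IAP family, went from 70.4, 41.3, 53.4 and 103.0 CPM to 254, 163, 619 and 293 CPM (log2 fold change 2.14 ± 0.33, adjusted p = 0.0292). Among 7 transcription factors NFKB2 rose, from 41.5, 32.6, 52.9 and 43.4 CPM to 133, 107.6, 278 and 88.9 CPM (log2 fold change 1.65 ± 0.23, adjusted p = 0.0225). In the CREBBP pools 0 genes of these lists passed in edgeR, as did 0% of all genes. An unadjusted p under 0.05 was reached by 1 of 11 other family genes and 2 of 15 apoptosome and caspase genes, beside 2.75% of all genes. The median log2 fold change with IL4 in the AAVS pools was 0.22 over the 6 inhibitors, 0.48 over the 7 transcription factors and -0.23 over the 15 apoptosome and caspase genes, beside 0.01 over all genes tested. The difference in response passed for the same 3 genes, beside 0.638% of all genes tested. It was -2.97 ± 0.37 for CFLAR (adjusted p = 0.00624), -1.84 ± 0.36 for BIRC3 (adjusted p = 0.048) and -1.82 ± 0.28 for NFKB2 (adjusted p = 0.0209, all SE and edgeR). In the AAVS IL4 libraries the summed markers of naive or memory B cells were 1877, 851, 3607 and 456 CPM in lines 1 to 4 and those of T cells 132, 86.8, 268 and 41.2 CPM, highest in line 3 as were CFLAR, BIRC3 and NFKB2. The lowest line was line 4 for these sums and for NFKB2 and line 2 for CFLAR and BIRC3, and the part of such transcripts in these changes was not tested.

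With IL4 in both, CFLAR and BIRC3 were lower in the CREBBP pools (log2 fold changes -3.29 ± 0.40 and -2.04 ± 0.35, adjusted p = 0.0121 and 0.029, edgeR). In the same test, which 4.39% of all genes passed in either direction, 2 of 15 genes of the apoptosome and caspase list were higher. These were CYCS, which encodes cytochrome c, at 179, 397, 314 and 370.4 CPM against 140.1, 213, 94.0 and 126 CPM (log2 fold change 1.42 ± 0.30, adjusted p = 0.0459), and AIFM1, which encodes a mitochondrial flavoprotein, at 51.1, 119.9, 47.7 and 52.6 CPM against 20.5, 122.9, 21.7 and 27.8 CPM (log2 fold change 1.11 ± 0.24, adjusted p = 0.048). For both genes the groups overlapped. For AIFM1 line 2 was above the other lines in both groups. Its sign in line 2 turned with the scaling, lower by library totals (119.9 against 122.9 CPM) and higher by 0.52 after TMM scaling (log2 CPM). Of 5 genes for turnover of MCL1, 0 passed in any comparison, with 0 at an unadjusted p under 0.05.

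Genes whose log2 CPM ran most closely with a member over the 16 libraries were sought among 11698 protein-coding genes, as a description. The points share 4 lines, and all members with a level apart in line 2 share that contrast. The AAVS IL4 libraries are among the points. They were the highest of their line in 4 of 4 lines for BCL2 and BBC3 and in 3 of 4 for BCL2A1 and BCL2L1. The part of that contrast in the coefficients was not tested. BCL2 ran most closely with ZNF555, NEDD4L and MYO1D (Pearson r = 0.988, 0.983 and 0.982), and BCL2L1 with PWWP2B, ST14 and PARVB (0.974, 0.974 and 0.971). For BCL2A1 the nearest were NFIL3, MAP3K8 and CYLD (0.965, 0.961 and 0.960), and for MCL1 they were INVS, MIGA1 and ZNF780B (0.944, 0.940 and 0.936). BAX was nearest to FTSJ1, TBRG4 and MRPL2 (0.956, 0.932 and 0.927), and BAK1 to TBCB, SSU72 and FDX2 (0.967, 0.960 and 0.955). The BH3-only BBC3 was nearest to TSC22D3, PNPLA7 and CDKN1A (0.911, 0.909 and 0.899). BCL2L11 was nearest to GSDME, PAK6 and P2RX1 (0.916, 0.913 and 0.896), PMAIP1 to RBM20, VPS4B and TLR4 (0.949, 0.945 and 0.931), and BID to FLAD1, TMED9 and EBNA1BP2 (0.963, 0.955 and 0.952). Between members, the highest coefficients were 0.889 for BCL2 with BCL2L1 and 0.850 for BAX with BID, and the lowest was -0.883 for MCL1 with BAK1, all over the same 16 libraries.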

How the data were processed

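RNA-seq of 16 lymphoma line libraries was analysed. Estimated counts, whole and not normalized, were deposited for each gene by the authors, made with Cutadapt 2.3 for trimming, STAR 2.7.8a for alignment to GRCh38 and RSEM 1.3.3 for counting (versions from the submitters' processing notes). The strand setting is not given in the sources used here. From the counts on, all values were computed here with R 4.3.3, edgeR 4.0.16, DESeq2 1.42.0 and Python 3.11.15. Genes were filtered with filterByExpr, scaled by TMM and fitted over all genes by the quasi-likelihood method of edgeR, with the line as a block (a term per pool for the difference in response) and Benjamini-Hochberg adjusted p-values. Within-line differences are of TMM-scaled log2 CPM with a prior count of 2, and levels are CPM of library totals. Positions and lengths were taken from GENCODE release 44.

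Libraries of a line pair by origin. Their deviations from the group means correlated with medians of 0.534, 0.734, 0.300 and 0.663 in lines 1 to 4 and a lowest value of -0.092. Replicates were not copies (chi-square per degree of freedom at least 98.7). The scripts were tested on simulated data. Total counts were 19649735 to 61981976 per library, and each group of 4 libraries limits the precision. Alternatives were other factors, filters, blocks, libraries left out and DESeq2, and the fit of the 12 libraries outside AAVS IL4 and within-line signs without TMM were added after seeing the data. Members, gene lists and tests were chosen with earlier results of these data known. Named were all members, list genes with an adjusted p under 0.05 (at most 5 per list and comparison), 6 other family genes, and the 3 protein-coding genes most like each member.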

Additional observations from a re-analysis of the deposited data

Results flagged for a closer look

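Over the 10 members and 4 groups, 40 sets of 4 libraries were screened for a library far from the other 3 by Dixon's criterion, and chance alone marks about 1 in 20 such sets. In 3 sets line 2 was such a library. BCL2A1 was 7.23 CPM in CREBBP baseline of line 2, with the other lines at 1.26 to 1.36 CPM, and 20.4 CPM in CREBBP IL4 of line 2, with the others at 1.05 to 1.27 CPM. BAX was 38.6 CPM in AAVS baseline of line 2, with the others at 18.8 to 21.2 CPM.

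BBC3 was higher with IL4 in 4 of 4 lines of the AAVS pools and lower in 4 of 4 lines of the CREBBP pools. Of the genes tested, 30.2% and 14.6% kept 1 sign in every line of these pools. In the CREBBP pools the log2 fold change of BBC3 was -0.46, with a 95% interval from -1.03 to 0.11 (edgeR). Line 1 differed there by -0.09 (TMM-scaled log2 CPM). The difference between these responses was -1.86 on the log2 scale, and its adjusted p of 0.141 (edgeR) did not pass the threshold. In the AAVS IL4 libraries markers of naive or memory B cells summed to 456 to 3607 CPM, against 3.37 to 36.8 CPM in the other 12, and their part in this difference was not tested.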

How the results depend on the processing

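Main counts of genes past the threshold were 488 for IL4 in AAVS pools, 0 for IL4 in CREBBP pools, 0 at baseline, 859 with IL4 in both and 140 for the difference in response. In that order, no filter on low counts gave 1851, 40, 586, 3466 and 1191 genes, and DESeq2 gave 2062, 1, 511, 4154 and 1099. At least 10 counts in every library gave 25 genes for IL4 in AAVS pools and 69 for the difference. A fit of all 16 libraries gave 1270 for IL4 in AAVS pools and 4393 with IL4 in both. Leaving out 1 line gave 64 to 1035 (AAVS pools, lowest without line 1 and highest without line 2), 0 to 515 (baseline, highest without line 2), 25 to 2547 (IL4 in both) and 16 to 264 genes (difference). Without the replicate block, which pairs the libraries of a line, 540 genes passed with IL4 in both and 2 for the difference, and BCL2A1 passed for IL4 in AAVS pools (adjusted p = 0.0238, edgeR). The causes were not tested.

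Of the 10 members, 0 passed in each main test. For IL4 in AAVS pools 1 passed with no filter, 1 without the block, 2 with DESeq2, 1 with all 16 libraries and 0 to 1 without 1 line. At baseline 1 passed with no filter and 0 to 1 without 1 line. With IL4 in both, 3 passed with no filter, 1 at 10 counts, 3 with DESeq2, 2 with all 16 and 0 to 2 without 1 line. For the difference 3 passed with no filter, 2 with DESeq2 and 0 to 1 without 1 line. Over all genes DESeq2 called 10.2% for IL4 in AAVS pools, 21.2% with IL4 in both and 5.01% for the difference. Shares over all genes are not given here for the other alternatives, so these counts are not read as a result about the members. Of 510 member fold changes under the alternatives, 456 kept direction and side of the threshold, 26 newly passed and 28 changed sign, none of them past the threshold in the main test.

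The log2 fold changes that changed sign were as follows. In AAVS pools PMAIP1 was -0.020 with DESeq2 size factors, -0.11 with no filter, -0.24 without the block, -0.019 in DESeq2 and -0.13 with all 16 libraries, and BID was -0.0060 with no filter and -0.027 without the block. BAK1 in CREBBP pools was 0.0025 in a fit of the 12 libraries outside AAVS IL4, chosen after seeing the data. BCL2 at baseline was -0.11 without the block and -0.074 with all 16 libraries. PMAIP1 with IL4 in both was -0.024 at 10 counts. For the difference, BID was -0.027 with DESeq2 size factors, -0.13 at 10 counts and -0.027 in DESeq2, and BAK1 was -0.045 at 10 counts. Leaving out 1 line gave, in AAVS pools, -0.34 to 0.12 for PMAIP1, -0.078 to 0.47 for MCL1, -0.15 to 0.074 for BAK1 and -0.090 to 0.29 for BID. In CREBBP pools it gave -0.26 to 0.61 for BCL2A1, -0.26 to 0.091 for BCL2L11, -0.12 to 0.21 for BID and -0.084 to 0.10 for BAK1. At baseline it gave -0.16 to 0.48 for BCL2 and -0.18 to 0.75 for BBC3, with IL4 in both -0.33 to 0.0020 for BCL2L1, and for the difference -0.41 to 0.18 for BID and -0.35 to 0.21 for MCL1. With the union of exons as length, BCL2L1 was 7.16, BAX 10.5 and BID 6.93 CPM per kilobase (means of 16 libraries). Each group held 4 libraries, which limits what could be detected. Some counts were low, with 42 of BCL2 and 43 of BBC3 in AAVS baseline of line 2. BCL2A1 had 60, 51 and 65 counts in CREBBP IL4 of lines 1, 3 and 4. Counting error was not compared with the spread between lines.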
